A study of Mus musculus with 48 samples.

Results

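The transporter genes of neurotransmitters and amino acids described here are the protein-coding genes of the solute carrier families Slc1a, Slc6a, Slc7a, Slc17a, Slc18a, Slc32a and Slc38a in mouse brain, taken by the start of their symbol. There were 68 such genes among 54532 in the table, 22046 of them protein-coding. A gene caught by its symbol, Slc7a6os, is no carrier: it is a neighbour of Slc7a6 on the opposite strand and does not overlap it in the table. RNA was sequenced from the brain hemisphere and the hippocampus of wild-type male C57Bl6 mice that carried an osmotic minipump for 2 weeks. The pump delivered angiotensin II at 0.7 mg per kg per day, a hormone that raises blood pressure, or saline as vehicle, and some mice also drank hydralazine (50 mg per kg), a vasodilator. The 4 treatments were vehicle, angiotensin II, vehicle plus hydralazine, and angiotensin II plus hydralazine, with 6 libraries for each treatment and region and 48 in all. Neither the age of the mice nor whether both regions came from the same mice is stated in the labels, and all groups share sex, strain and genotype. The labels do not tie each library to its own mouse, and a p-value here reflects only how much the libraries vary, which could be technical.

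A transmitter is loaded into vesicles by a carrier of the vesicle membrane, released, and then cleared from the synapse by a carrier of the plasma membrane driven by the sodium gradient. Glutamate is loaded by the vesicular glutamate transporters VGLUT1 (Slc17a7), VGLUT2 (Slc17a6) and VGLUT3 (Slc17a8), and GABA and glycine by VIAAT (Slc32a1). VMAT2 (Slc18a2) loads monoamines and VAChT (Slc18a3) loads acetylcholine. The Slc1a genes encode the plasma membrane carriers of glutamate and of neutral amino acids, and the Slc6a genes those of GABA, glycine, monoamines, creatine and others. Slc7a genes encode exchangers and cationic amino acid carriers, and Slc38a genes the glutamine and neutral amino acid carriers that link astrocytes, neurons and vessels. In the rodent forebrain VGLUT1 is the main form in hippocampal and cortical excitatory neurons and VGLUT2 that of the thalamus and brainstem.

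The stretch just upstream of the start of 4 of these genes is printed because they carry the contrast between regions described below: Slc17a7 was higher in the hippocampus, while Slc17a6, Slc32a1 and the GABA carrier gene Slc6a11 were lower. The sequences are the 250 bases before the RefSeq start in GRCm38.p6, all on the plus strand, and none reaches into the gene as the deposited table places it. Capitals mark the GC box, GGGCGG, or its reverse complement CCGCCC. The positions were chr7:45163671-45163920 for Slc17a7, chr7:51621580-51621829 for Slc17a6, chr2:158610508-158610757 for Slc32a1 and chr6:114130991-114131240 for Slc6a11.
Slc17a7: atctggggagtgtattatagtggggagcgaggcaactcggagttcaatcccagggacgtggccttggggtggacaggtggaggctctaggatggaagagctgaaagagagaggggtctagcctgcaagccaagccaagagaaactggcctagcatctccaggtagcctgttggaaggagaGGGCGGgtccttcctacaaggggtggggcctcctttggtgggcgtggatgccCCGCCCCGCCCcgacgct
Slc17a6: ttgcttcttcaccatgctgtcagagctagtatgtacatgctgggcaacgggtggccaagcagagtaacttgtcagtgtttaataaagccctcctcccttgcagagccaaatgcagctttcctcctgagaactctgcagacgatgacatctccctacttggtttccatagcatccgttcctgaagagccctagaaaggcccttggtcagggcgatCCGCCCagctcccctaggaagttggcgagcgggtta
Slc32a1: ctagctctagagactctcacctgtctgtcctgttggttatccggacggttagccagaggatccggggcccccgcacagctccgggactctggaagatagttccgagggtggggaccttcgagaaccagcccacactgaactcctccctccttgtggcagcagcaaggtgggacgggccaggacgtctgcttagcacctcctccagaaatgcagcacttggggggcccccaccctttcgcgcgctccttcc
Slc6a11: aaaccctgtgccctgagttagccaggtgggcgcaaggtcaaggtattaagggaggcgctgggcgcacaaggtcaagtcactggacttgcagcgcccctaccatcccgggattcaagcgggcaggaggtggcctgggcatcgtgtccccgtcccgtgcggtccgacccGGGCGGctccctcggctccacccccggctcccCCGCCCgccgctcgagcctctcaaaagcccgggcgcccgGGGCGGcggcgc
Both Slc17a7 and Slc6a11 held 3 copies of the motif, Slc17a6 held 1, and these letters were not in the Slc32a1 window. In Slc17a7 a pair of the copies on the reverse strand share a base. Slc6a11 had 25 CG dinucleotides in its window, against 9 for Slc17a7, 7 for Slc17a6, 12 for Slc32a1 and a median of 6 over all promoters. The motif was in 32.7% of the 32851 promoters of the RefSeq table and in 32 (44.4%) of the 72 promoters of members. The table held 49 of the 68 members. A match is a run of letters and not a measured binding site.

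Levels are FPKM, fragments per kilobase of gene scaled to the depth of the library, as deposited, so they are per length and can be set side by side between genes. A mean of at least 1 FPKM in some group was reached by 46 members, and 20 stayed under 0.5 FPKM in every group. These 20, which were not tested between regions, were Slc1a7, Slc6a2, Slc6a14, Slc6a18, Slc6a19, Slc6a20b, Slc6a21, Slc7a9, Slc7a12, Slc7a13, Slc7a15, Slc17a1, Slc17a2, Slc17a3, Slc17a4, Slc17a9, Slc18a1, Slc38a4, Slc38a8 and Slc38a11. Several of them are known from kidney, gut or liver. Hemisphere libraries had 15772111 to 23504274 reads in genes. Hippocampal libraries had 1211505 to 21000874 reads, and 6 of them (vehicle 3 and 4, angiotensin II 3, vehicle plus hydralazine 3 and 4, and angiotensin II plus hydralazine 5) listed only 7805 to 15684 genes above 0, against at least 18914 in the other 18. Angiotensin II replicate 6 stood apart in both regions, with 2.77% of reads mitochondrial in the hemisphere (median of the 24 libraries 6.17%) and 5.74% in the hippocampus (median 9.33%). Hippocampal vehicle replicate 5 had a summed level of 231.9 FPKM over 10 markers of thalamus and midbrain, against 9.26 to 19.8 in groups without it. The label of the hippocampus held: 8 markers of hippocampal excitatory neurons summed to 265 to 411 FPKM there and 68.7 to 86.2 in the hemisphere. The hemisphere libraries also held cerebellar genes, such as Pcp2 at 22.6 ± 4.71 FPKM (SD, n = 24) against 0.0302 ± 0.0534 in the hippocampus.

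Most transporter genes were lower in the hippocampus than in the hemisphere, and a short list was higher. The higher ones were led by the neuronal glutamate carrier gene Slc1a1, the vesicular glutamate carrier gene Slc17a7 and Slc7a14, a lysosomal member of the cationic carrier family. The largest deficits were in the glycine carriers Slc6a5 and Slc6a9, the dopamine and serotonin carriers Slc6a3 and Slc6a4, Slc17a6 and Slc18a3. Of the 48 members that passed the filter on low values (at least 0.5 FPKM in at least 6 of the 48 libraries), 6 were higher and 38 lower at an adjusted p under 0.05 by limma, averaged over the 4 treatments. That is 91.7% of those tested, where 67.5% of all 17643 genes tested were called, 20.2% as higher and 47.2% as lower. The median log2 difference (hippocampus minus hemisphere) was -0.62 over the members and -0.23 over all genes. A member low in one region could pass the filter through the other alone, so these counts describe the members tested and support nothing more. Since all genes were shifted, a difference relative to the latter is 0.23 higher than printed, which puts Slc7a5, Slc1a3, Slc7a8 and Slc38a9 at or slightly above the middle of all genes. Quantile normalization moved the median of all genes to 0.05 and gave 9 members higher and 30 lower (all genes: 6686 higher and 5827 lower, against 3572 and 8330). Without the 6 hippocampal libraries listing few genes, 9 members were higher and 39 lower, which is all 48 tested, with 81.7% of all genes called.

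**Figure D1:**
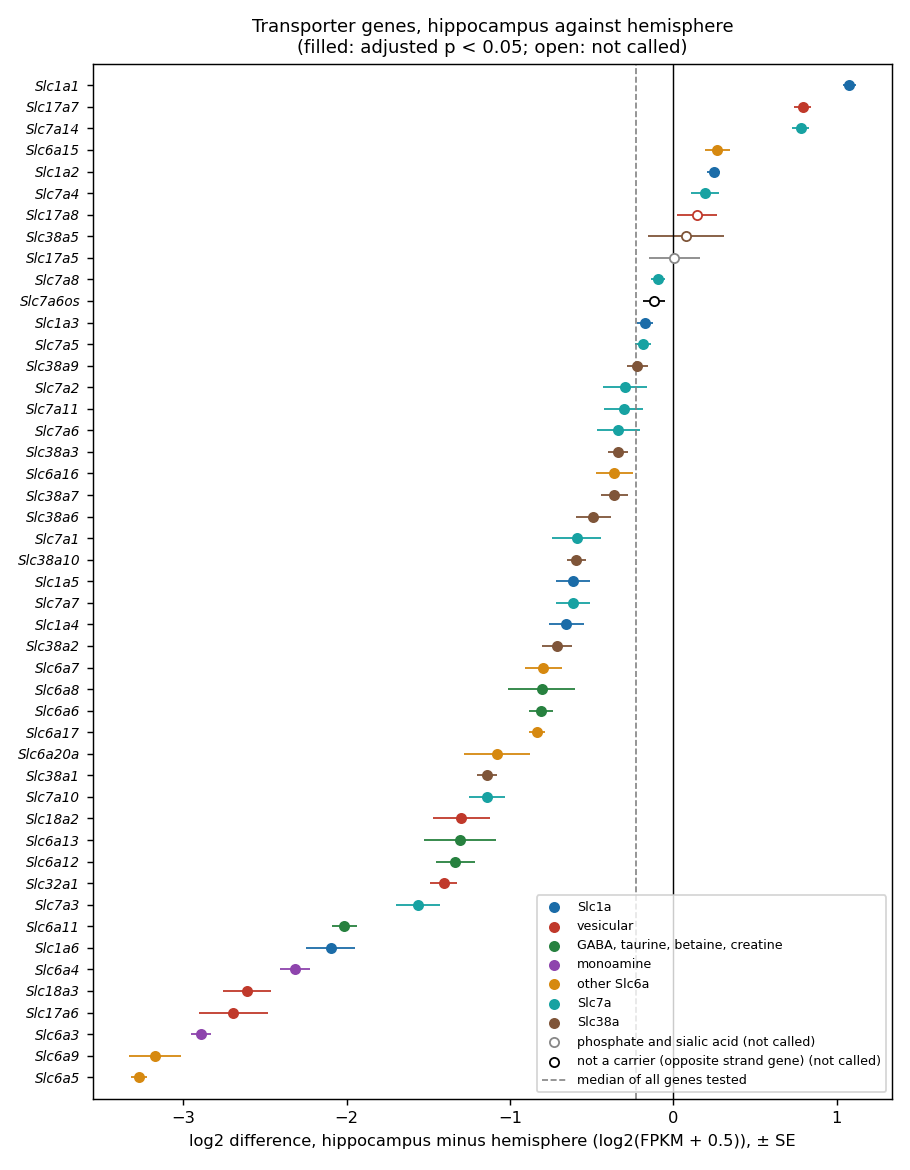
Each point is the log2 difference between hippocampus and hemisphere (x axis, log2(FPKM + 0.5), mean of 4 treatments, ± SE) of 1 of 47 transporter genes tested, coloured by role, filled where called. Points run from -3.27 for Slc6a5 to 1.08 for Slc1a1, and 37 filled points lie left of 0 against 6 to the right; the dashed line is the median of all genes, -0.23.

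The contrast held in each treatment for the members at both ends. Of the 48 tested, 20 were called lower and 3 higher in all 4 treatments. The 3 were Slc1a1, Slc17a7 and Slc7a14. The share of all genes called in all 4 treatments was not counted, so these numbers describe the members alone. In vehicle mice 4 members were higher and 28 lower (42.2% of all genes called), in angiotensin II mice 5 and 26 (37%), in vehicle plus hydralazine mice 3 and 29 (50.7%), and in mice given both drugs 4 and 25 (42.4%). For 13 members the 24 hippocampal libraries did not overlap the 24 of the hemisphere, 11 of them lower and 2 higher (27.1% of the members tested, where 7.71% of all genes tested did not overlap). Whole-tissue RNA cannot tell fewer cells of a type from less RNA per cell, which applies to every difference given here.

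Among the vesicular carriers, VGLUT1 and VGLUT2 went in opposite directions. Slc17a7 was by level the leading member in both regions. Its FPKM had a lowest, median and highest value of 179, 195 and 319 in the hemisphere and 229, 355 and 429 in the hippocampus. The lowest hippocampal library was vehicle replicate 5 and the highest hemisphere library angiotensin II replicate 6, and the other libraries of the regions did not overlap. The log2 difference was 0.79 ± 0.0546 (SE; adjusted p = 4.87e-17). By treatment it was 0.79 in vehicle, 0.80 in angiotensin II, 0.86 in vehicle plus hydralazine and 0.72 in angiotensin II plus hydralazine mice. Its size depended on the processing. Over all alternatives the mean over treatments lay between 0.25 and 0.82, with a limma adjusted p of at most 0.00012. Slc17a6 had 6.90, 11.2 and 13.2 FPKM in the hemisphere and 0, 1.20 and 21.3 in the hippocampus, where the 21.3 was again vehicle replicate 5 and the next library had 5.16. Its log2 difference was -2.70 ± 0.211 (adjusted p = 2.84e-15). The regions overlapped only through that library, which also held 14.7 FPKM of Tcf7l2, a thalamic transcription factor, where no other hippocampal library exceeded 1.34. Without it Slc17a6 averaged 1.39 ± 1.16 FPKM (SD, n = 23) in the hippocampus. Slc17a7 made up 94.3% ± 0.947 of the summed FPKM of the 3 vesicular glutamate carriers in the hemisphere and 99.0% ± 1.68 in the hippocampus (SD, n = 24 each). Slc17a8, found in scattered neurons that often release another transmitter too, had 0.699 ± 0.183 FPKM in the hemisphere and 0.894 ± 0.409 in the hippocampus, a difference that was not called (0.15 ± 0.123, adjusted p = 0.294). It was called without the 6 libraries listing few genes (0.38, adjusted p = 1.75e-05), 3 of the hippocampal libraries being at 0.

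The remaining vesicular carriers that were tested were lower in the hippocampus. Slc32a1 had 50.1, 56.8 and 78.7 FPKM in the hemisphere and 8.002, 23.1 and 28.9 in the hippocampus (lowest, median and highest), with no overlap. Its log2 difference was -1.41 ± 0.0803 (adjusted p = 7.41e-20). The GABA-making enzymes Gad1 and Gad2 differed less on the same scale, by -0.55 ± 0.0377 and -0.64 ± 0.0801. They mark GABA neurons, while Slc32a1 also serves glycine neurons, so the genes need not report on the same cells. Whether this bears on the gap was not tested. Of 6 interneuron markers 2 were higher and 4 lower in the hippocampus, and their summed FPKM was 539 to 760 in the hemisphere and 470 to 1278 in the hippocampus. Slc18a2 had 1.91, 4.29 and 5.44 FPKM in the hemisphere and 0, 1.95 and 2.46 in the hippocampus, a difference of -1.30 ± 0.177 (adjusted p = 1.55e-08). Slc18a3 had 1.98, 2.92 and 4.49 FPKM in the hemisphere. In the hippocampus 17 of 24 libraries were at 0, 1 library (vehicle replicate 5) had 4.86 and the rest at most 0.181. The difference was -2.61 ± 0.146 (adjusted p = 3.63e-20). Slc18a3 passed the filter through the hemisphere alone, so this call describes the gene and supports nothing more. Slc18a3 lies inside the Chat gene, the choline acetyltransferase gene, so reads of the pair may not be separable. VMAT1 (Slc18a1) and the nucleotide carrier Slc17a9 stayed under 0.5 FPKM in every group and were not tested.

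**Figure D2:**
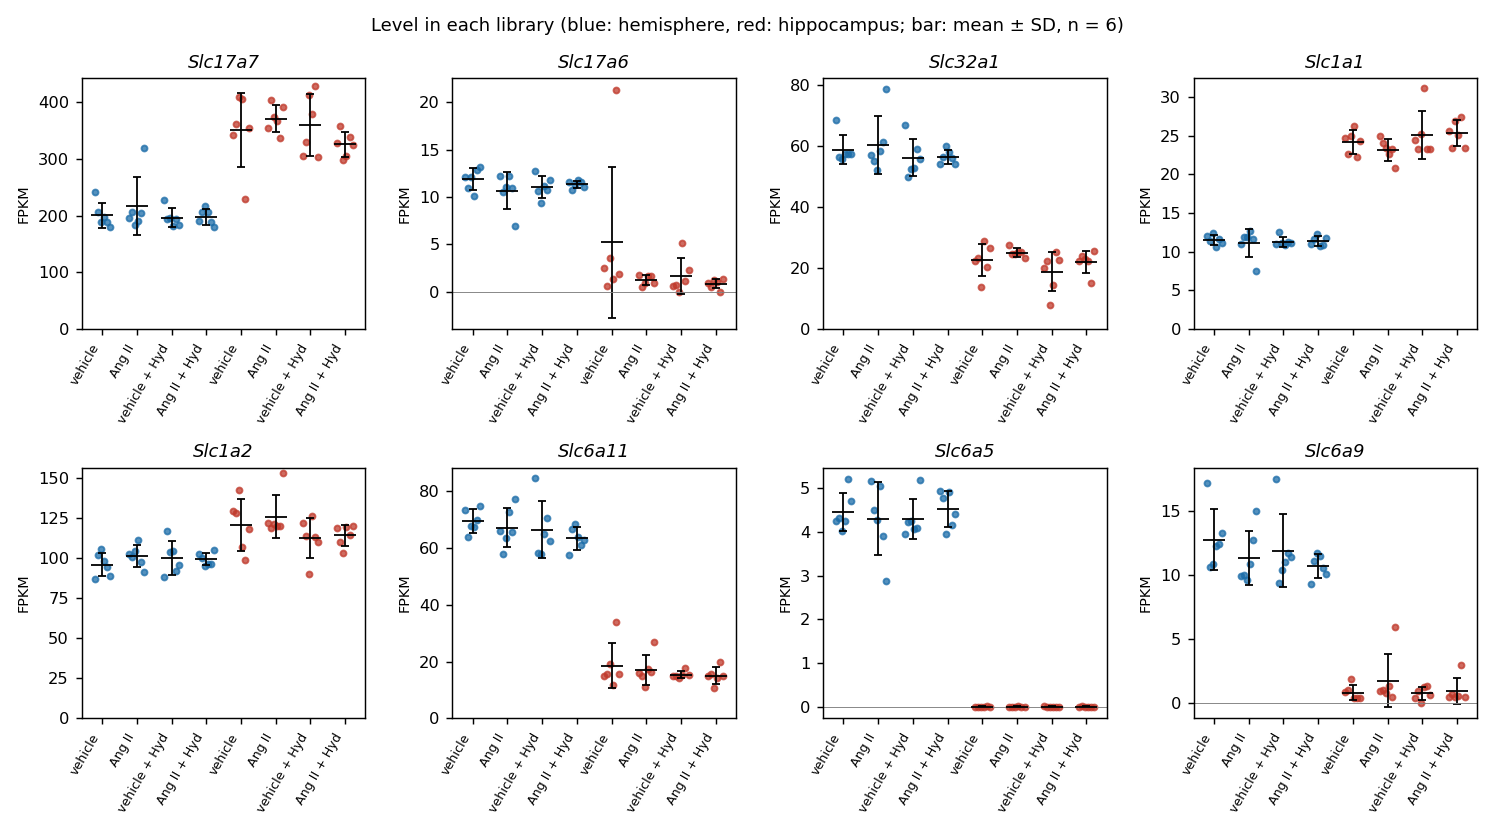
Level in FPKM (y axis, starting at or below 0) of 8 transporter genes in each library (points) of the 8 groups (x axis: treatment; blue hemisphere, red hippocampus; Hyd, hydralazine), with the mean and SD of 6. Slc17a7 and Slc1a1 sit higher in the red groups, Slc17a6, Slc32a1, Slc6a11, Slc6a5 and Slc6a9 in the blue ones; hippocampal vehicle replicate 5 is the red point at 21.3 in the Slc17a6 panel.

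The plasma membrane glutamate carriers shifted in composition. EAAC1 (Slc1a1), the carrier of neuronal cell bodies and dendrites, had 7.53, 11.3 and 12.6 FPKM in the hemisphere and 20.8, 24.2 and 31.2 in the hippocampus. Every hippocampal library lay above every hemisphere library, and the log2 difference was 1.08 ± 0.0412 (adjusted p = 3.12e-26). GLT-1 (Slc1a2), which clears most glutamate through astrocytes, was the most abundant of the family, at 99.1 ± 7.24 FPKM in the hemisphere and 118 ± 12.9 in the hippocampus (SD, n = 24). Its difference was small, 0.25 ± 0.0393 (adjusted p = 4.11e-07), and under quantile normalization it turned to -0.22 (adjusted p = 0.00114). GLAST (Slc1a3), the other astrocytic carrier, had 39.5 ± 3.93 and 35.1 ± 4.65 FPKM, a difference of -0.17 ± 0.051 (adjusted p = 0.00274). EAAT4 (Slc1a6), a carrier of cerebellar Purkinje cells, had 15.3, 19.6 and 33.2 FPKM in the hemisphere and 0, 4.93 and 6.48 in the hippocampus, a difference of -2.10 ± 0.152 (adjusted p = 2.46e-16). All 7 cerebellar markers were lower in the hippocampus as well (summed FPKM 177 to 262 in the hemisphere and 17.6 to 49.1 in the hippocampus, Gabra6 at 0 in all libraries of 3 hippocampal groups). Their part in the result was not tested. The neutral amino acid carriers of the family were lower as well, Slc1a4 (ASCT1) by -0.65 ± 0.106 (adjusted p = 6.9e-07) and Slc1a5 (ASCT2) by -0.61 ± 0.107 (adjusted p = 2.37e-06). Slc1a1 made up 6.67% ± 0.581 of the summed FPKM of Slc1a1, Slc1a2, Slc1a3 and Slc1a6 in the hemisphere and 13.5% ± 1.79 in the hippocampus (SD, n = 24). The retinal carrier Slc1a7 did not reach 0.5 FPKM in any group.

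The 5 carriers of GABA, taurine, betaine and creatine described here were lower in the hippocampus. GAT-3 (Slc6a11), an astrocytic GABA carrier, had 57.4, 65.9 and 84.6 FPKM in the hemisphere and 10.7, 15.3 and 34.1 in the hippocampus, without overlap. Its log2 difference was -2.01 ± 0.0773 (adjusted p = 4.12e-26), and the 34.1 was vehicle replicate 5. Of 7 astrocyte markers 5 were lower and 1 higher in the hippocampus, with a median of -0.37. GAT-2 (Slc6a13), expressed in the meninges, had 6.62 ± 1.66 and 2.91 ± 1.97 FPKM, a difference of -1.30 ± 0.22 (adjusted p = 1.42e-06). Of 5 meningeal fibroblast markers tested, 4 were lower in the hippocampus as well (summed FPKM of the list of 6, 13.5 to 27.2 in the hemisphere and 0.474 to 17.4 in the hippocampus). Their part in the difference of Slc6a13 was not tested. The betaine carrier Slc6a12 differed by -1.33 ± 0.12 (adjusted p = 1.99e-13), the taurine carrier Slc6a6 by -0.81 ± 0.0733 (adjusted p = 2.56e-13) and the creatine carrier Slc6a8 by -0.81 ± 0.203 (adjusted p = 0.000562). Slc6a8 was at 0 in vehicle plus hydralazine replicate 3, the hippocampal library with the fewest reads, and at most 19.9 FPKM in the others. Its difference was -1.41 in vehicle plus hydralazine mice, against -0.66 in vehicle, -0.61 in angiotensin II and -0.55 with both drugs. It was called in 1 of the 4 treatments. Over all alternatives the mean over treatments lay between -0.91 and -0.57.

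Glycine and monoamine carriers were very low in the hippocampal libraries. GlyT2 (Slc6a5), the carrier of glycinergic neurons, had 2.89, 4.26 and 5.21 FPKM in the hemisphere. In the hippocampus 19 of 24 libraries were at 0 and 11 reads were counted over the region. Its log2 difference, -3.27 ± 0.0489 (adjusted p = 5.9e-42), had the smallest p of the 48 members. No hippocampal library exceeded 0.0252 FPKM, so after adding 0.5 they barely varied, which keeps this SE and p small. GlyT1 (Slc6a9), mainly astrocytic, had 9.26, 11.1 and 17.5 FPKM in the hemisphere and 0, 0.764 and 5.90 in the hippocampus, the last in angiotensin II replicate 6. The difference was -3.17 ± 0.159 (adjusted p = 7.22e-22). The dopamine carrier Slc6a3 had 2.51, 3.68 and 5.04 FPKM in the hemisphere and 77 reads over the whole hippocampus, with 8 libraries at 0, a difference of -2.89 ± 0.0607 (adjusted p = 4.07e-36). The serotonin carrier Slc6a4 had 0.74, 2.28 and 3.05 FPKM in the hemisphere and 30 reads in the hippocampus, with 13 libraries at 0, a difference of -2.32 ± 0.0912 (adjusted p = 9.39e-26). The noradrenaline carrier Slc6a2 was below the filter, at 0.367 ± 0.0935 FPKM in the hemisphere and at 0 in 22 of 24 hippocampal libraries, with 2 reads in all. Monoamine neurons have their cell bodies in the brainstem. The 6 markers of monoaminergic and cholinergic neurons summed to 14.8 to 25.2 FPKM in the hemisphere and 0 to 14.6 in the hippocampus, all 6 lower there, with Chat at 0 in every library of 2 hippocampal groups. Their part in the result was not tested. On the log2(FPKM + 0.5) scale differences of genes near 0 are understated. The SE and p of Slc6a3 and Slc6a4 are kept small as for Slc6a5, with hippocampal values of at most 0.157 and 0.0684 FPKM. Slc6a3, Slc6a4 and Slc6a5 passed the filter through the hemisphere alone, as did Slc18a3. In the hippocampal libraries by themselves 43 of the 48 members passed it.

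The other Slc6a carriers tested were lower in the hippocampus with 1 exception. The vesicular amino acid carrier NTT4 (Slc6a17) had 61.4 ± 5.23 and 34.4 ± 4.90 FPKM (SD, n = 24), a difference of -0.84 ± 0.0483 (adjusted p = 1.1e-19) without overlap. The brain proline carrier Slc6a7 differed by -0.80 ± 0.112 (adjusted p = 3.32e-08), with a highest hippocampal value of 53.1 FPKM. Slc6a20a, a carrier of proline and other imino acids, differed by -1.08 ± 0.204 (adjusted p = 1.01e-05). Slc6a16 was lower by -0.36 ± 0.113 (adjusted p = 0.00459) at under 1 FPKM. The exception was the neuronal branched-chain amino acid carrier Slc6a15 (B0AT2), at 5.32 ± 0.594 FPKM in the hemisphere and 6.63 ± 1.25 in the hippocampus, 0.27 ± 0.0759 (adjusted p = 0.00176).

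Of the Slc7a genes tested, 2 were higher and 9 lower in the hippocampus. Slc7a14 had 6.48, 7.80 and 9.02 FPKM in the hemisphere and 10.3, 13.5 and 18.6 in the hippocampus, without overlap, a difference of 0.78 ± 0.05 (adjusted p = 3.92e-18). Slc7a4, a relative of the cationic carriers with no known transport activity, was higher by 0.19 ± 0.0844 (adjusted p = 0.0392), a call that was lost when any of 12 single libraries was left out. The cationic amino acid carrier CAT3 (Slc7a3) had 2.88, 3.34 and 4.12 FPKM against 0, 0.925 and 3.94, a difference of -1.56 ± 0.133 (adjusted p = 4.65e-14). The astrocytic exchanger Asc-1 (Slc7a10), which carries D-serine and glycine, had 19.8 ± 2.71 and 9.27 ± 3.90 FPKM, a difference of -1.14 ± 0.109 (adjusted p = 1.25e-12). LAT1 (Slc7a5), the large neutral amino acid exchanger of the blood-brain barrier, had 20.3 ± 2.86 and 17.7 ± 1.74 FPKM, -0.18 ± 0.05 (adjusted p = 0.00124). LAT2 (Slc7a8) differed by -0.09 ± 0.0417 (adjusted p = 0.0422), a call lost when any of 21 single libraries was left out. xCT (Slc7a11), the cystine and glutamate exchanger, had 1.91 ± 0.218 and 1.55 ± 0.592 FPKM, -0.30 ± 0.121 (adjusted p = 0.0251), and turned to 0.11 under quantile normalization. The cationic carriers Slc7a1 and Slc7a2 differed by -0.59 ± 0.148 (adjusted p = 0.000526) and -0.30 ± 0.134 (adjusted p = 0.0472), and the exchangers Slc7a6 and Slc7a7 by -0.34 ± 0.132 (adjusted p = 0.0225) and -0.62 ± 0.105 (adjusted p = 1.66e-06). Slc7a6os, the neighbouring gene that is no carrier, was not called (-0.12 ± 0.0654, adjusted p = 0.11). Without the 6 hippocampal libraries listing few genes it was called, with 6.75 ± 0.396 FPKM in the hemisphere and 6.09 ± 0.547 in the hippocampus. Slc3a2, the heavy chain that the exchangers need, was not called (-0.05 ± 0.0663, adjusted p = 0.554).

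The Slc38a carriers of glutamine and neutral amino acids were lower or not called. SNAT1 (Slc38a1), the neuronal glutamine carrier, had 8.69, 12.5 and 14.4 FPKM in the hemisphere and 3.69, 5.28 and 8.63 in the hippocampus, without overlap, a difference of -1.14 ± 0.0608 (adjusted p = 6.42e-21). SNAT2 (Slc38a2) differed by -0.71 ± 0.0913 (adjusted p = 3.61e-09). SNAT3 (Slc38a3), which releases glutamine from astrocytes, differed by -0.34 ± 0.0602 (adjusted p = 3.5e-06). Slc38a10 differed by -0.59 ± 0.0585 (adjusted p = 3.25e-12), Slc38a6 by -0.49 ± 0.108 (adjusted p = 9.92e-05), Slc38a7 by -0.36 ± 0.083 (adjusted p = 0.000175) and Slc38a9, an amino acid sensor of the lysosome, by -0.22 ± 0.064 (adjusted p = 0.00238). SNAT5 (Slc38a5) was not called (0.08 ± 0.233, adjusted p = 0.778), with 3 hippocampal libraries at 0. Without the 6 libraries listing few genes it was higher in the hippocampus by 0.56 ± 0.0833 (adjusted p = 1.28e-07). Members of the phosphate and sialic acid branch were mostly silent: Slc17a1 to Slc17a4 stayed under 0.5 FPKM in every group. The lysosomal sialic acid carrier sialin (Slc17a5) had 4.28 ± 0.432 and 4.81 ± 2.07 FPKM, not called (adjusted p = 0.972). Without the 6 libraries listing few genes Slc17a5 was called, with 4.92 ± 0.631 FPKM in the hippocampus (SD, n = 18). Slc17a3, Slc17a4 and Slc7a12 were at 0 in all 24 hippocampal libraries. A count of 3 reads over those libraries would be 0.00113, 0.00128 and 0.00439 FPKM respectively, for counting error only.

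Enzymes and partners of the same pathways, which are no members, were given as counts. Of 30 such genes 29 were tested between regions, with 3 higher and 19 lower in the hippocampus and a median log2 difference of -0.41. Of all 17643 genes tested 67.5% were called, 20.2% as higher and 47.2% as lower. The counts describe this list alone, and the genes named next are all from the lower side. The lower ones included Th, the dopamine-making enzyme (-3.61 ± 0.148, adjusted p = 5.08e-25), Tph2, the serotonin-making enzyme (-1.69 ± 0.185, adjusted p = 6.42e-11) and Abat, which breaks down GABA (-1.12 ± 0.0572, adjusted p = 1.66e-21). Glul, the glutamine synthetase of astrocytes, differed by -0.30 ± 0.045 (adjusted p = 1.5e-07), close to the median of all genes.

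No transporter gene was called for angiotensin II in either region at an adjusted p under 0.05 by limma, and the 2 members nearest to it in the hemisphere were Slc7a7 and Slc6a13. In the hemisphere 0 of 48 members tested were called, where 0.0717% of all genes (12 of 16747) were called. An unadjusted p under 0.05 was reached by 1 member (2.08%) and by 9.24% of all genes. In the hippocampus 0 of 43 were called and 0 had an unadjusted p under 0.05. Of all genes 0% were called and 1.38% had an unadjusted p under 0.05. The median log2 difference of the members (angiotensin II minus vehicle) was 0.02 in the hemisphere and 0.06 in the hippocampus, and that of all genes 0.00 and 0.04. The member with the smallest p in the hemisphere was Slc7a7, the exchanger y+LAT1, expressed in microglia and macrophages. Its FPKM had a lowest, median and highest value of 0.697, 0.771 and 0.815 in vehicle and 0.856, 0.935 and 1.09 in angiotensin II mice. The groups did not overlap (0.561% of all genes tested did not overlap between these groups), but the difference was not called (0.20 ± 0.091, adjusted p = 0.533). Of 5 microglial markers none was called in this comparison, and their median log2 difference was 0.10. Slc6a13 followed, with 5.17, 6.10 and 6.72 FPKM in vehicle and 5.66, 7.10 and 12.5 in angiotensin II mice. The groups overlapped and the difference of 0.33 ± 0.16 was not called (adjusted p = 0.538). It was 0.19 without angiotensin II replicate 6. Of the 5 meningeal markers tested none was called, with a median of 0.12. In the hippocampus the smallest p belonged to Slc38a10 (means of 8.98 FPKM in vehicle and 11.2 in angiotensin II mice, 0.31 ± 0.159, adjusted p = 1) and to Slc6a6 (means of 6.93 and 8.96 FPKM, 0.35 ± 0.19, adjusted p = 1). Without vehicle replicate 3 these were 0.18 for Slc38a10 and 0.19 for Slc6a6, and without angiotensin II replicate 6 Slc6a6 was 0.21. Without the 6 libraries listing few genes Slc38a10 was 0.10, and with library weights, which count noisy libraries less, the differences were 0.09 and 0.11. The difference of the angiotensin II effect between regions was called for 0 of 48 members (0% of all genes). An unadjusted p under 0.05 was reached by 0 members and by 2.92% of all genes. Slc6a15 had the smallest p there (0.43 ± 0.215, adjusted p = 1), and its value was 0.19 without hippocampal vehicle replicate 3 and 0.08 without the 6 libraries listing few genes.

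No member was called for hydralazine or for both drugs either. In the hemisphere 0 of 48 were called for both drugs against angiotensin II (2 with an unadjusted p under 0.05), 0 for both drugs against vehicle (3), 0 for hydralazine alone against vehicle (0), 0 for both drugs against vehicle plus hydralazine (2) and 0 for the interaction of the drugs (0). In each of these 0% of all genes were called. The shares of all genes at an unadjusted p under 0.05 were 4.54%, 5.21%, 1.67%, 2.99% and 2.75%, in the same order. In the hippocampus 0 of 43 were called in the same 5 comparisons, and 0% of all genes in each. An unadjusted p under 0.05 was reached by 0, 1, 1, 4 and 0 members. Of all genes it was reached by 1.65%, 1.98%, 5.64%, 5.97% and 2.4%. Over all 13 comparisons of treatments, 14 of 594 tests of members (2.36%) had an unadjusted p under 0.05. The comparisons share groups, so these tests are not independent.

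In 3 hemisphere comparisons (both drugs against vehicle or vehicle plus hydralazine, and the interaction) SNAT5 (Slc38a5) had the smallest p of the members. It is a glutamine and glycine carrier. Its FPKM had a lowest, median and highest value of 1.82, 2.18 and 2.87 in vehicle, 2.21, 2.50 and 3.32 in angiotensin II, 1.19, 2.18 and 3.49 in vehicle plus hydralazine, and 2.48, 3.47 and 3.63 in angiotensin II plus hydralazine mice. The group given both drugs lay highest by its median and overlapped each other group. Its log2 difference was 0.47 ± 0.141 against vehicle (unadjusted p = 0.00292, adjusted p = 0.584), 0.52 ± 0.141 against vehicle plus hydralazine (unadjusted p = 0.00127, adjusted p = 1) and 0.30 ± 0.141 against angiotensin II (adjusted p = 0.851). These comparisons share the group given both drugs. The interaction was 0.35 ± 0.2 (adjusted p = 1), and 0.22 without vehicle plus hydralazine replicate 5. Over all alternatives the difference from vehicle lay between 0.40 and 0.54 and its adjusted p between 0.109 and 1, so it was called under none. The cationic amino acid carrier Slc7a1 had means of 4.35 FPKM in vehicle, 3.82 in angiotensin II, 4.21 in vehicle plus hydralazine and 3.70 with both drugs, and its difference between both drugs and vehicle was -0.20 ± 0.0807 (adjusted p = 0.86). Between both drugs and angiotensin II the smallest p belonged to Slc6a15, ahead of Slc38a5. Slc6a15 differed there by 0.20 ± 0.0907 (adjusted p = 0.851), and by 0.08 without angiotensin II replicate 6. For hydralazine alone the smallest p belonged to Slc6a3 (means of 3.35 FPKM in vehicle and 4.02 in vehicle plus hydralazine mice, 0.22 ± 0.118, adjusted p = 1).

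In the hippocampus the members with the smallest p had wide errors. Slc17a6 had means of 5.20 FPKM in vehicle and 0.836 with both drugs, a log2 difference of -1.42 ± 0.578 (adjusted p = 1). The vehicle mean rests on replicate 5, without which the difference was -0.88. The vehicle libraries had a lowest, median and highest value of 0.62, 2.18 and 21.3 FPKM, and no other group of the region had a library above 5.16. Slc7a6, the exchanger y+LAT2, had means of 5.50 FPKM in vehicle plus hydralazine and 2.66 with both drugs (-0.82 ± 0.36, adjusted p = 0.649), and Slc17a5 had 3.66 and 6.16 (0.96 ± 0.423, adjusted p = 0.649). Without the 6 libraries listing few genes these differences were -0.0096 for Slc7a6 and 6.2e-05 for Slc17a5, and with library weights 0.04 and 0.03. Leaving out 1 library brought Slc7a6 to -0.55 (both drugs, replicate 5) and Slc17a5 to 0.42 (vehicle plus hydralazine, replicate 3). Slc38a2 was 8.45 FPKM in vehicle and 6.32 in vehicle plus hydralazine mice (-0.48 ± 0.226, adjusted p = 0.677). Slc7a1 was 2.21 and 4.52 (0.81 ± 0.409, adjusted p = 0.677), with 13.8 FPKM in vehicle plus hydralazine replicate 3. Without that library Slc7a1 was 0.45, and without vehicle replicate 3 it was 0.37, while Slc38a2 was -0.32 without vehicle plus hydralazine replicate 4. Without the 6 libraries listing few genes Slc7a1 was 0.03 and Slc38a2 -0.10, and with library weights 0.02 and -0.01. The log2 difference of Slc17a7 between both drugs and angiotensin II was -0.19 ± 0.116, not called (adjusted p = 1).

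**Figure D3:**
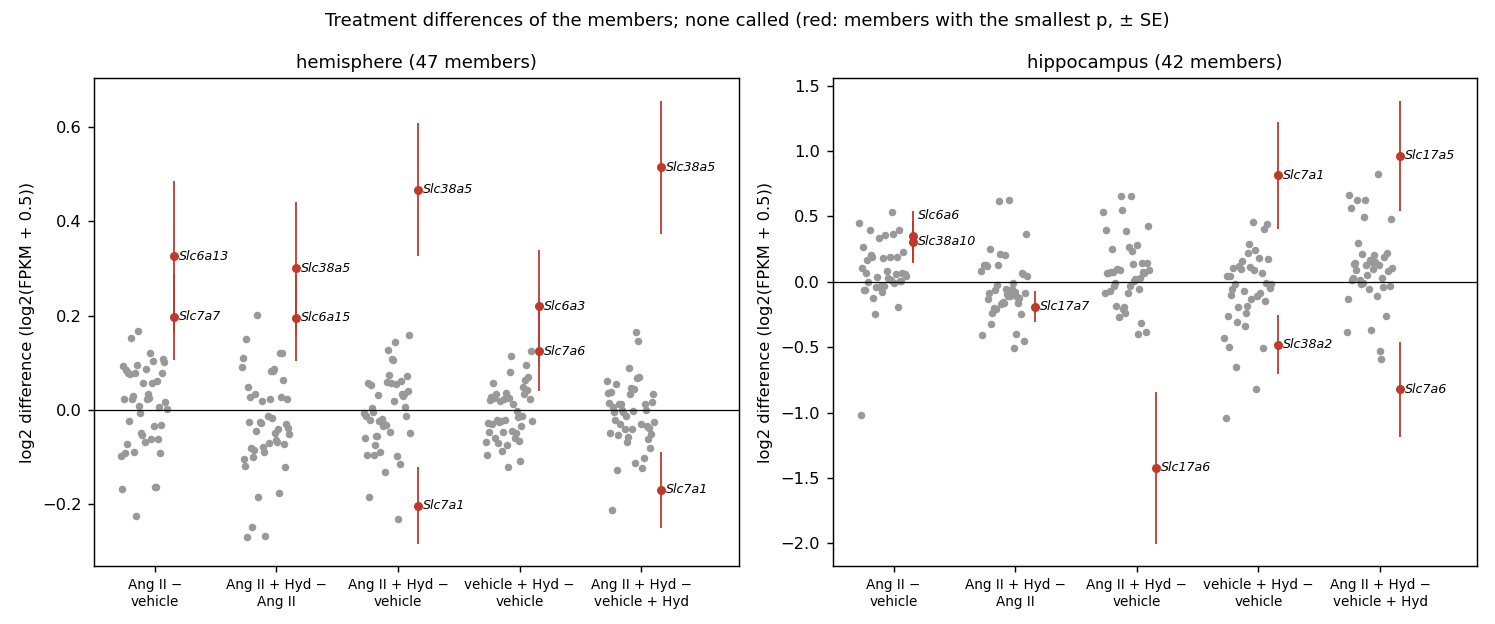
Each grey point is the log2 difference (y axis, log2(FPKM + 0.5)) of 1 member between the groups named on the x axis, in the hemisphere (left, 47 members) and the hippocampus (right, 42 members; the y axes differ in range). Red points with SE mark members with the smallest p of each comparison; none was called, and the largest sizes were 0.52 in the hemisphere and 1.42 in the hippocampus.

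The precision of these comparisons differed between regions. Over groups with a mean of at least 1 FPKM, the coefficient of variation of a member within a group had a median of 10.3% in the hemisphere (2.22% to 41.5%) and 19.8% in the hippocampus (2.71% to 153%). Without the 6 hippocampal libraries listing few genes the median there was 11.6%. The 153% was Slc17a6 in the vehicle group.

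How members varied between hemisphere libraries of the same treatment was compared with a gene of the same transmitter or region, over 8 pairs in 24 libraries after centring each treatment on its mean. Slc6a4 went with Tph2, the enzyme of the same serotonin neurons (Pearson r = 0.89, Spearman rho = 0.88, permutation p = 1e-05 for both, the smallest that 100000 permutations can give, adjusted p = 4e-05 and 8e-05). Without the 2 libraries farthest from the median of Tph2, r was 0.82. Slc17a6 went with the thalamic gene Tcf7l2 (r = 0.86, rho = 0.76, permutation p = 1e-05 and 5e-05, adjusted p = 4e-05 and 0.0002; r = 0.72 without the 2 farthest). Slc32a1 went against Gad1 by Pearson's r (-0.79, permutation p = 7e-05, adjusted p = 0.00019), more weakly by rank (rho = -0.46, permutation p = 0.026, adjusted p = 0.069) and with r = -0.54 without the 2 farthest libraries, 1 of them angiotensin II replicate 6. The other 5 pairs were not called: Slc6a3 and Th (r = 0.13, rho = 0.19, permutation p = 0.55 and 0.38), Slc18a2 and Th (-0.25, -0.05, p = 0.24 and 0.8), Slc18a3 and Chat (-0.24, -0.37, p = 0.25 and 0.076), Slc17a7 and Neurod6 (-0.40, 0.14, p = 0.06 and 0.52), and Slc6a13 and Dcn (0.27, 0.27, p = 0.2 for both). Their adjusted p lay between 0.12 and 0.8. Without angiotensin II replicate 6, r for Slc18a2 and Th turned to 0.28 (permutation p adjusted over the pairs, 0.262). In the last 2 of these pairs the value depended on that library. Without it r was 0.65 (permutation p adjusted over the pairs, 0.00144) for Slc17a7 and Neurod6, a marker of cortical and hippocampal excitatory neurons. For Slc6a13 and Dcn, a fibroblast gene, it was 0.71 (0.00064). That library had 319 FPKM of Slc17a7 beside 15.1 of Neurod6. Without the 2 libraries farthest from the median of the second gene, it among them, r was lower, at 0.31 and 0.60. Treatments were not centred anew for these last values, so how firm the 2 associations are stays unsettled.

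**Figure D4:**
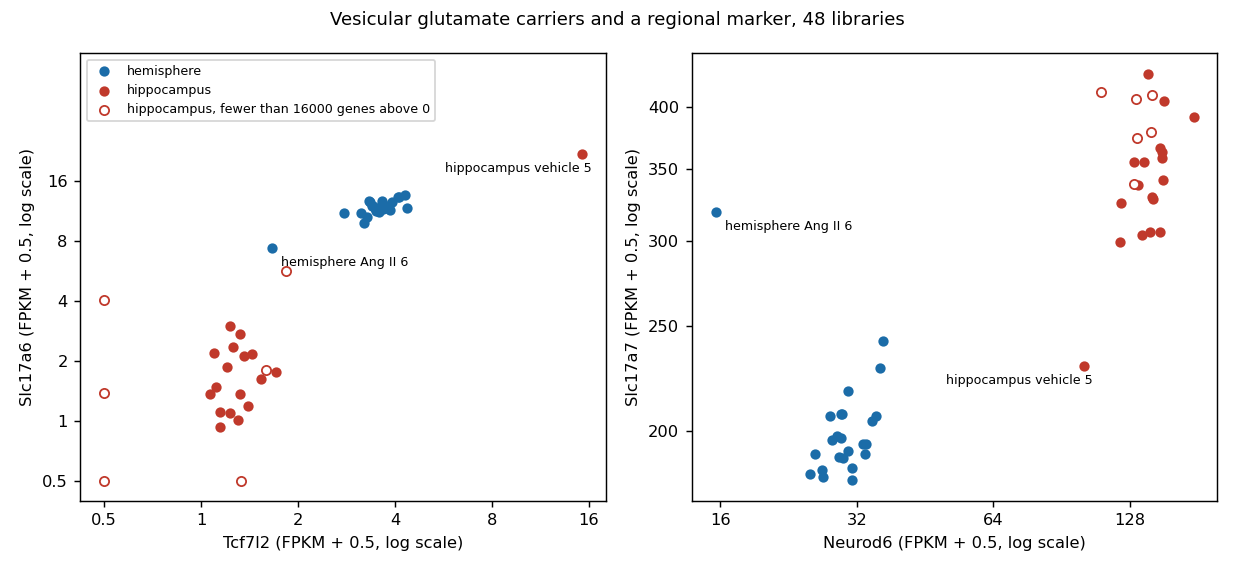
Level of Slc17a6 against the thalamic gene Tcf7l2 (left) and of Slc17a7 against Neurod6 (right) in the 48 libraries, both axes FPKM + 0.5 on a log scale (blue hemisphere, red hippocampus, open points hippocampal libraries with fewer than 16000 genes above 0). Hippocampal vehicle replicate 5 lies beyond the hemisphere points on the left, with 21.3 FPKM of Slc17a6 and 14.7 of Tcf7l2, and hemisphere angiotensin II replicate 6 lies apart on the right at 319 FPKM of Slc17a7.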

How the data were processed

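The authors deposited FPKM for 54532 genes in 48 libraries, with a gene length in bases beside each gene (unit other). Per the submitters' processing notes DESeq 1.10.1 is among the tools listed, with GRCm38 and mm10 as builds. The aligner, the counter and its strand setting are not stated there or in the labels, so overlapping genes may share reads. Every FPKM times gene length was a whole multiple of 1 read (tolerance 0.1), which gave the depth; no count model was used. Values were tested as log2(FPKM + 0.5), which understates changes of low genes, with limma 3.58.1 in R 4.3.3 (trend and robust prior, two-sided) on genes reaching 0.5 FPKM in 6 or more of the fitted libraries. Region comparisons used 48 libraries and treatment comparisons the 24 of a region. P-values were Benjamini-Hochberg adjusted over all genes and called under 0.05. The fit was tested on simulated data. Correlations used 100000 permutations. Python 3.11.15 with pandas 2.3.3, numpy 2.4.6, scipy 1.17.1 and matplotlib 3.10.9 did the rest.

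Members named were, between regions, the 10 largest called differences per direction with a group mean of at least 1 FPKM, and per treatment comparison the 2 with the smallest p where none was called, plus a fixed list of 27 carriers, of which 1 is not reported here but stays in the counts of members. Those named besides were chosen after their values were seen. The members and lists were chosen with earlier results of these data known. Alternatives were pseudocounts, filters, scalings, priors, library weights, a replicate block, fits of only the groups compared and leaving libraries out. Same-numbered libraries did not all deviate together, so numbers were not taken as pairs. Within groups, all 120 pairs of libraries differed beyond sampling noise (chi-square per gene at least 3.08).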

Additional observations from a re-analysis of the deposited data

Results flagged for a closer look

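Single libraries far from the other 5 of their group were looked for with Dixon's criterion at the 95% level in 36 named members, in 250 gene and group combinations with a mean of at least 1 FPKM. There were 54 such values, where chance gives about 1 in 20. They gathered in few libraries, and their cause was not tested.

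Hemisphere angiotensin II replicate 6 gave 16 of them. It was high for Slc17a7 (319 FPKM), Slc32a1 (78.75), Slc1a6 (33.2), Slc38a3 (31.2), Slc7a5 (30.6), Slc7a10 (30.1), Slc7a4 (19.7), Slc38a10 (18.6) and Slc7a8 (18.2). It was low for Slc38a1 (8.69), Slc1a1 (7.53), Slc17a6 (6.90), Slc7a14 (6.51), Slc38a2 (5.80), Slc6a15 (3.16) and Slc18a2 (1.91). In the hippocampus the library of the same treatment and number was high for Slc1a2 (153 FPKM), Slc1a3 (49.1), Slc6a6 (14.5) and Slc6a9 (5.90).

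Hemisphere vehicle plus hydralazine replicate 1 was high for Slc17a7 (228 FPKM), Slc7a10 (23.5), Slc6a9 (17.5) and Slc38a10 (17.1) and low for Slc1a3 (31.6). Other hemisphere libraries gave 1 value each: vehicle replicate 1 for Slc32a1 (68.5), and vehicle plus hydralazine replicates 2 for Slc1a1 (12.6) and 6 for Slc6a5 (5.19).

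Hippocampal vehicle replicate 5, which holds thalamic markers, was low for Slc17a7 (229 FPKM) and high for Slc6a11 (34.1), Slc17a6 (21.3) and Slc7a8 (15.6). Libraries listing few genes gave 19 values in both directions. Vehicle replicate 3 had Slc7a5 at 13.7 FPKM, Slc7a6 at 7.91, Slc38a10 at 5.60, and Slc38a5 and Slc7a1 at 0. Vehicle plus hydralazine replicate 3 had Slc1a4 at 38.3, Slc7a1 at 13.8, and Slc6a8 and Slc1a6 at 0, and replicate 4 had Slc1a1 at 31.2 and Slc7a3 at 3.94. Angiotensin II replicate 3 had Slc7a4 at 12.7 and Slc18a2 at 0. Angiotensin II plus hydralazine replicate 5 had Slc1a4 at 27.9, Slc7a5 at 21.4, Slc38a3 at 20.1, Slc32a1 at 15.2, Slc17a5 at 12.1 and Slc7a10 at 2.78.

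The remaining 3 were hippocampal angiotensin II replicate 4 for Slc6a13 (4.83 FPKM), a library with a summed choroid plexus marker level of 2010 FPKM, angiotensin II plus hydralazine replicate 3 for Slc6a8 (18.9), and vehicle plus hydralazine replicate 5 for Slc6a11 (17.9).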

How the results depend on the processing

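The number of members called between regions, 44 over the mean of treatments, lay between 39 and 52 under every alternative, and 43 with the replicate block. In angiotensin II plus hydralazine mice it went from 29 to 46 with library weights. In the 13 comparisons of treatments 0 members were called under every alternative, replicate block included. Slc1a2 (-0.22) and Slc7a11 (0.11) turned under quantile normalization. The difference of Slc17a7 between regions lay between 0.25 and 0.82 over the alternatives. With library weights Slc6a15 (-0.0741) in the difference between regions, Slc7a1 (0.0183) in the hippocampal interaction and Slc7a6 (0.0376) for both drugs against vehicle plus hydralazine turned, none of them called. Without hemisphere angiotensin II replicate 6 the correlation of Slc18a2 with Th became 0.28, that of Slc17a7 with Neurod6 0.65 and that of Slc6a13 with Dcn 0.71. Over all genes, calls for angiotensin II in the hemisphere went from 12 to between 0 and 38 (5 with the replicate block), and for both drugs against vehicle from 0 to as many as 102 with library weights. Over all genes the region calls went from 11902 to between 10346 and 16001. The cause of these shifts was not tested. Replicate numbers were not taken as pairs: same-numbered libraries of the 2 regions correlated at -0.207 to 0.0414, and within a region 3 of 36 such pairs in the hemisphere (up to 0.451) and 8 of 36 in the hippocampus (up to 0.244) exceeded 0.1. Per read, a 1 kb gene gained 0.722 FPKM in hippocampal vehicle plus hydralazine replicate 3 and at most 0.0602 in any hemisphere library, which limits low genes there.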
